A study of Mus musculus with 21 samples.

Results

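The 10 Sox genes described here are members of 5 subfamilies that neural cells use: *Sox1*, *Sox2* and *Sox3* of SoxB1, *Sox21* and *Sox14* of SoxB2, *Sox4* and *Sox11* of SoxC, *Sox9* of SoxE, and *Sox5* and *Sox6* of SoxD. They were chosen by name, and all 10 were found among the 55400 genes of the count table. Polyadenylated RNA was sequenced from wild-type C57BL/6 mouse embryonic stem cells that were being directed towards hypaxial motor neurons, in 21 libraries that make up 7 groups of 3 biological replicates. All groups received 1 μM retinoic acid and 0.5 μM of the hedgehog agonist SAG from day 2 as embryoid bodies, and 5 μM of the Notch pathway inhibitor DAPT was added to that medium at day 4, the day on which the D4 samples were collected, and to the base medium (ADFNK) used at day 5. Stage and these changes of medium cannot be told apart in the comparisons of stages. The untreated groups were collected at day 4 (D4), 8 h later (D4H8), at day 5 (D5) and at day 6 (D6). The treated groups (D4H8_GSKJ4, D5_GSKJ4 and D6_GSKJ4) had been given GSKJ4, an inhibitor of Kdm6 histone H3K27 demethylases, for the day before collection; its dose in these cultures was not given in the sources used here. The stem cells had been grown on mouse embryonic fibroblasts and no sorting of the cultures is stated, so other cells can be present.

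Sox proteins bind DNA through an HMG box, and the subfamilies hold different roles along the neural lineage. SoxB1 factors maintain neural progenitors and oppose their exit to neurons, and *Sox2* is also a core factor of pluripotent cells. SoxB2 factors act mostly as repressors and favour neuronal differentiation. SoxC factors activate pan-neuronal genes in cells that leave the cycle, *Sox9* of SoxE acts in neural stem cells and in the switch to glia, and the SoxD factors *Sox5* and *Sox6* lack a transactivation domain and modulate other Sox proteins.

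The coding sequence of the HMG box shows how close the members are to each other. Shown for each member are 60 coding bases of that domain, 5′ to 3′, from GENCODE M21 transcripts on GRCm38 to show how far the subfamilies of the usual Sox classification differ in the domain they share. Capitals mark the bases that differ from *Sox2*.
Sox1: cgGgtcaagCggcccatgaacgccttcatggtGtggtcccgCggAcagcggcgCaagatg
Sox2: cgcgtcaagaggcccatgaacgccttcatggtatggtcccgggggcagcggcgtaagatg
Sox3: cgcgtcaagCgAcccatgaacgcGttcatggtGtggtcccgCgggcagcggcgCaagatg
Sox21: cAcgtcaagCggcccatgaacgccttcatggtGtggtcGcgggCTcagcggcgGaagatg
Sox14: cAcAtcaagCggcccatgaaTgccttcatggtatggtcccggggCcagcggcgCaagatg
Sox4: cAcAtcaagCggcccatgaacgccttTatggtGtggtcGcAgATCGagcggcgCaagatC
Sox11: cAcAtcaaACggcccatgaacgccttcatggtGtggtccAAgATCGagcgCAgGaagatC
Sox9: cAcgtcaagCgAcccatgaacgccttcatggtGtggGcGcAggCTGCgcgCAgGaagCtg
Sox5: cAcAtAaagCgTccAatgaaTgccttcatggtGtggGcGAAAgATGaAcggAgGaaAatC
Sox6: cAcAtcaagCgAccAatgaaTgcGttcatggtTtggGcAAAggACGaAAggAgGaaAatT

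The *Sox2* stretch is at chr3:34650539-34650598 (plus strand), and those of the genes to which the results return most often are at chrX:60892945-60893004 (minus strand) for *Sox3*, chr13:28952791-28952850 (minus strand) for *Sox4* and chr12:27342208-27342267 (minus strand) for *Sox11*. Against *Sox2*, the other SoxB1 members differed at 6 bases each, *Sox14* at 6, *Sox21* at 7, *Sox4* at 13, *Sox11* and *Sox9* at 15, and both SoxD members at 21. Over 210 coding bases of the domain, the 6 pairs within a subfamily were 82.4% to 90.5% identical (median 88.6%), and the 39 pairs across subfamilies 56.2% to 88.6% (median 68.6%). The ranges overlap because SoxB1 and SoxB2 are close: *Sox21* was 87.1% to 88.6% identical to the SoxB1 genes and 85.7% to *Sox14* of its own subfamily. The longest coding transcript of 7 members has a single exon; *Sox9* has 3 exons, *Sox5* 15 and *Sox6* 17.

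**Figure D1:**
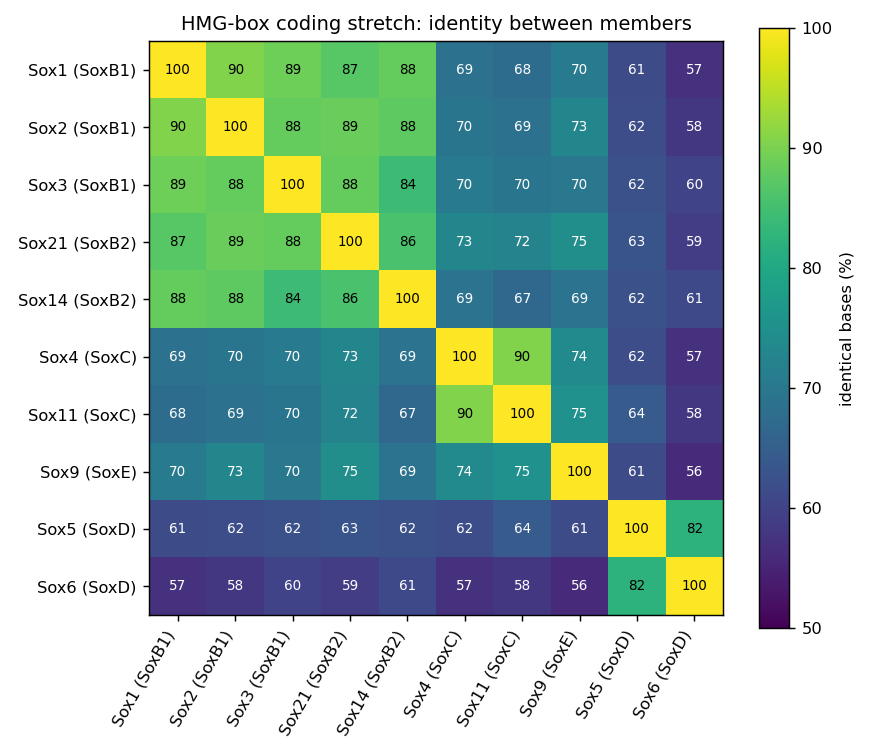
Percent of identical bases between each pair of the 10 Sox genes over 210 coding bases of the HMG box; both axes list the genes with their subfamily and the colour gives the identity. The SoxB1 and SoxB2 genes form a common block, while *Sox4* with *Sox11* and *Sox5* with *Sox6* stand as pairs.

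Reads of some members could be mixed with those of overlapping genes, since the counting strand was not given in the sources used here. Exons of *Sox4*, *Sox21* and *Sox5* overlap an opposite-strand gene over 2616, 713 and 1330 bases, and *Sox1* overlaps a small gene on its own strand over 86 bases. The total count per library ran from 14982115 to 34383842 (median 16238435). The library of D5_GSKJ4 replicate 2 stood apart, with 39381 genes at 0 counts against 29339 to 32805 in the others. The labels call every sample a differentiated motor neuron. *Isl1*, a motor neuron determinant, ran from 2.36 to 5.72 FPKM at D4 and from 115 to 134 FPKM at D6, and *Chat*, the acetylcholine synthesis enzyme, from 0.07 to 0.51 and from 23.2 to 31.3 FPKM, so these markers were near 0 or low at D4. *Olig2*, a motor neuron progenitor factor, had 38.0 to 56.0 FPKM at D4 and 0.51 to 1.66 FPKM at D6. FPKM scales fragments to exon length and to the total counted reads, so levels can be compared between genes.

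**Figure D2:**
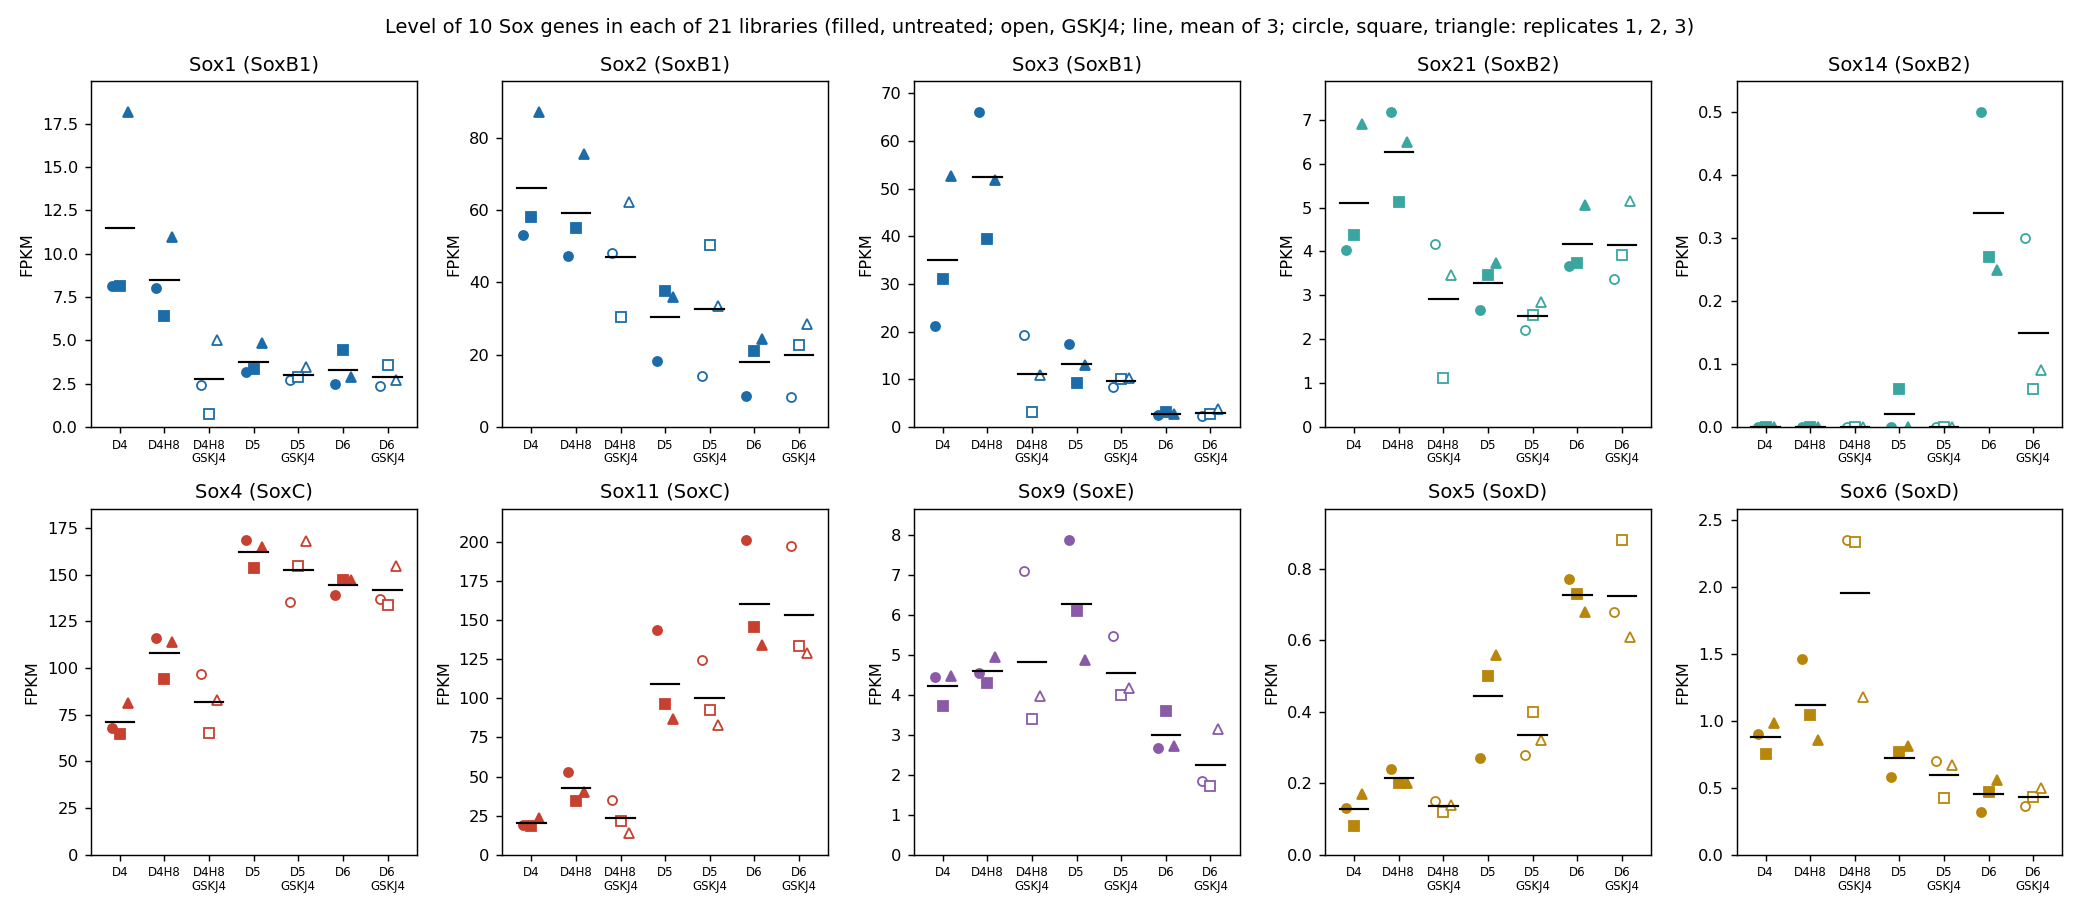
Level (FPKM, y axis, from 0 in each panel) of each of the 10 Sox genes in every library of the 7 groups (x axis); filled symbols are untreated, open symbols GSKJ4, and the line is the mean of 3 replicates. *Sox3* drops to 2.43 to 3.16 FPKM by D6 while *Sox11* climbs to between 134 and 201 FPKM, and in the GSKJ4 libraries of D4H8 *Sox1*, *Sox3* and *Sox21* lie under every untreated library of that stage.

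At D4 the highest mean levels were those of *Sox4* (71.2 FPKM ± 8.83, SD, n = 3) and *Sox2* (66.1 ± 18.3), whose libraries overlapped. *Sox3* (35.0 ± 16.1) and *Sox11* (20.1 ± 2.77) followed, also with overlapping libraries, and then *Sox1* (11.5 ± 5.77), *Sox21* (5.11 ± 1.57) and *Sox9* (4.21 ± 0.419), of which the last pair overlapped. The SoxD members were low, with *Sox6* at 0.877 ± 0.117 FPKM and *Sox5* at 0.127 ± 0.0451 FPKM, and *Sox14* had no reads. *Sox13*, a SoxD gene that is no member, held 20.5 ± 3.12 FPKM at D4 and 17.5 ± 2.13 FPKM at D6. At D6 the order was led by *Sox11* (160 ± 36.0 FPKM) and *Sox4* (144 ± 4.74), with overlapping libraries, and *Sox2* came next at 17.9 ± 8.37. *Sox21*, *Sox1*, *Sox9* and *Sox3* had D6 means between 2.75 and 4.16 FPKM, and each overlapped its neighbour in the order. *Sox5* (0.727 ± 0.0451) stood above *Sox6* (0.45 ± 0.121) at D6, whereas at D4 *Sox6* stood above *Sox5*.

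Across the 4 untreated stages the balance moved from SoxB1 towards SoxC, taken over the members. The summed FPKM of SoxB1 was 82.3, 97.5 and 158 in the D4 libraries and 13.4, 28.7 and 29.9 in the D6 libraries, and that of SoxC was 86.7, 82.8 and 105 at D4 and 340, 292 and 281 at D6. The groups did not overlap for either sum. At D4 the SoxB1 sum was the higher in 2 of 3 libraries, those of replicates 2 and 3. With *Sox12*, a SoxC gene that is no member, added after seeing the data, the SoxC sum at D4 was 108, 106 and 132 FPKM, and SoxB1 was the higher in replicate 3 alone. As a share of the summed FPKM of the 10 genes, SoxB1 made up 51.7% ± 5.65 (SD, n = 3) at D4, 42.4% ± 2.78 at D4H8, 14.6% ± 3.41 at D5 and 7.23% ± 3.08 at D6, and SoxC 43.4% ± 5.26, 53.3% ± 2.62, 82.1% ± 3.53 and 90.2% ± 3.43. The ratio of the SoxC to the SoxB1 sum went from 0.854 ± 0.194 at D4 through 1.26 ± 0.14 and 5.92 ± 1.88 to 15 ± 9.06 at D6. Within SoxC, the ratio of *Sox11* to *Sox4* was 0.277 to 0.287 at D4 and 0.91 to 1.45 at D6. These are bulk libraries, so fewer cells that express a gene and less of its RNA per cell cannot be told apart.

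**Figure D3:**
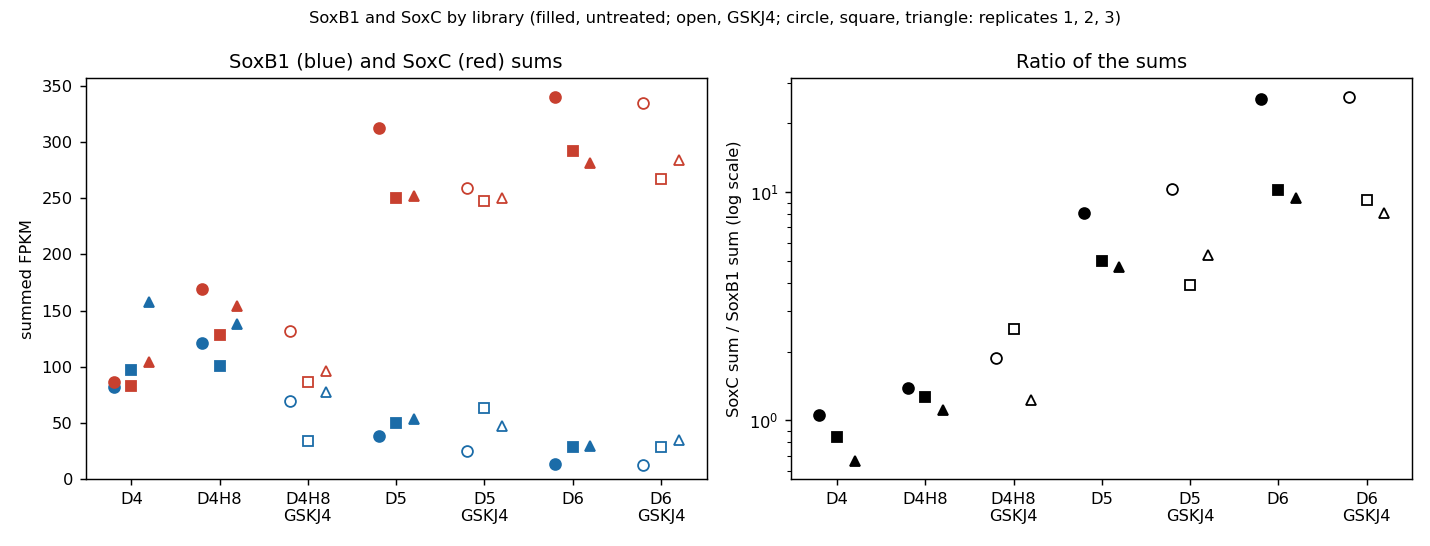
Left, summed FPKM of the SoxB1 genes (blue) and the SoxC genes (red) in each library; right, the SoxC sum divided by the SoxB1 sum on a log scale; filled symbols are untreated and open symbols GSKJ4 libraries. The ratio lay between 0.662 and 1.05 at D4 and between 9.43 and 25.5 at D6, with the circle of replicate 1 highest at D5 and D6.

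From D4 to D4H8 the SoxC members rose and the SoxB1 members were not called. *Sox11* held 18.8, 18.2 and 23.3 FPKM in D4 replicates 1 to 3 and 52.8, 34.2 and 40.4 FPKM in those of D4H8. All D4H8 libraries lay above all D4 libraries, and *Sox11* rose by 1.04 on the log2 scale (SE 0.238, edgeR adjusted p 0.0233). *Sox4* went from 67.8, 64.6 and 81.2 FPKM to 116, 94.3 and 114 FPKM, also without overlap, a log2 fold change of 0.55 (SE 0.126, adjusted p 0.022). In all, edgeR called 2 members up and 0 down of 9 tested. Of all 17519 genes tested, 4.06% were called up and 0.32% down. At an unadjusted p under 0.05 were 3 members, where 2894 of all genes were. DESeq2 called 2 members, where it called 965 of 16218 genes up and 174 down. The D4H8 libraries lay wholly above those of D4 for 3 tested members and wholly under for 0, where 2484 and 2007 of 17519 genes did so. *Sox14* had too few reads to be tested. The median log2 fold change was 0.32 over the 9 members and -0.02 over all genes. *Sox3* (log2 fold change 0.57, SE 0.279, adjusted p 0.334) and *Sox5* (0.71, SE 0.311, adjusted p 0.271) had positive values that did not pass. The *Sox11* call was lost without D4 replicate 1 (adjusted p 0.0823), D4 replicate 2 (0.11) or D4H8 replicate 1 (0.146), and the *Sox4* call without any of these (0.0527, 0.119 and 0.142) or D4H8 replicate 3 (0.0659).

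Between D4H8 and D5, the stage of newborn motor neurons, 7 of the 9 tested members changed: every SoxB1 member and *Sox21* fell, and both SoxC members and *Sox5* rose. Over all genes 17.2% were called up and 10.5% down. The median log2 fold change was -0.66 for the members and 0.01 for all genes. *Sox3*, the X-linked SoxB1 gene, held 66.0, 39.5 and 51.7 FPKM at D4H8 and 17.3, 9.31 and 13.0 FPKM at D5. It showed the largest change of the step among the members, a log2 fold change of -1.99 (SE 0.292, adjusted p 0.000184). *Sox1* went from 8.03, 6.40 and 10.9 to 3.17, 3.32 and 4.83 FPKM (log2 fold change -1.16, SE 0.302, adjusted p 0.0106). *Sox2* went from 47.3, 54.9 and 75.6 to 18.2, 37.6 and 35.9 FPKM (log2 fold change -0.95, SE 0.322, adjusted p 0.0401). For each SoxB1 gene all D5 libraries lay under all D4H8 libraries. Such separation was common: 5 tested members lay wholly lower at D5 and 3 wholly higher, where 3413 and 4239 of 17519 genes did so.

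The SoxB2 gene *Sox21* followed the SoxB1 genes in this step, from 7.17, 5.13 and 6.5 to 2.66, 3.46 and 3.74 FPKM, without overlap (log2 fold change -0.94, SE 0.212, adjusted p 0.00455). *Sox11* reached 144, 96.7 and 87.1 FPKM at D5 and *Sox4* 168, 154 and 165 FPKM, all above D4H8, with log2 fold changes of 1.37 (SE 0.24, adjusted p 0.000756) and 0.59 (SE 0.126, adjusted p 0.00319). *Sox5* reached 0.27, 0.50 and 0.56 FPKM from 0.24, 0.20 and 0.20 (log2 fold change 1.02, SE 0.297, adjusted p 0.0197). *Sox9*, at 7.87, 6.09 and 4.88 FPKM, had its highest mean here (6.28 ± 1.5), but the step from D4H8 did not pass (log2 fold change 0.46, SE 0.196, adjusted p 0.098). *Sox6* had a log2 fold change of -0.66 (SE 0.244, adjusted p 0.0602), and its D5 libraries, 0.58 to 0.81 FPKM, lay under those of D4H8, 0.86 to 1.46. Leaving out a library ended the *Sox2* call in 4 of 12 refits (without D4 replicate 2, D4H8 replicate 2 or 3, or D5 replicate 1, with adjusted p of 0.0517 to 0.151), the *Sox5* call in 4 (without D4H8 replicate 2 or 3 or D5 replicate 2 or 3, 0.0652 to 0.102) and the *Sox1* call in 1 (0.0513, without D4H8 replicate 3).

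In the last step, D5 to D6, calls differed within subfamilies, and members were not tested against each other. *Sox3* fell again, from 17.3, 9.31 and 13.0 to 2.43, 3.16 and 2.66 FPKM (log2 fold change -2.16, SE 0.317, adjusted p 0.00019), while *Sox1*, at 2.47, 4.46 and 2.88 FPKM, overlapped its D5 libraries (log2 fold change -0.09, SE 0.306, adjusted p 0.839). *Sox2* had 8.46, 21.04 and 24.31 FPKM at D6 (log2 fold change -0.66, SE 0.325, adjusted p 0.132). Same-numbered libraries of D5 and D6 deviated together, and with the replicate number as a block the log2 fold change of *Sox2* was -0.70 with an adjusted p of 0.0176. Without D5 replicate 1 and with no block it passed as well (-0.92, adjusted p 0.0413). *Sox9* fell from its D5 level to 2.68, 3.60 and 2.73 FPKM (log2 fold change -0.96, SE 0.2, adjusted p 0.00232). *Sox21* overlapped (log2 fold change 0.45, SE 0.213, adjusted p 0.119).

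Among the members that rose, *Sox11* reached 201, 146 and 134 FPKM at D6 (log2 fold change 0.67, SE 0.236, adjusted p 0.0418) and *Sox5* 0.77, 0.73 and 0.68 FPKM (0.85, SE 0.288, adjusted p 0.0354). The *Sox11* groups overlapped, and its call held in 4 of 12 refits that each left out a library and was lost without any D4 library, D4H8 replicate 3, D5 replicate 2 or 3, or D6 replicate 1 or 2 (adjusted p 0.052 to 0.204). That of *Sox5* held in 8 and was lost without replicate 1 or 2 of D5 or of D6 (0.0624 to 0.111). No rise of *Sox4* was called: it had 139, 147 and 147 FPKM at D6 (log2 fold change -0.06, SE 0.126, 95% interval -0.33 to 0.21, adjusted p 0.757), with every FPKM value under those of D5. In all, 2 members were called up and 2 down, where 19.2% of all genes were up and 15.1% down. Of the tested members 1 lay wholly higher at D6 and 4 wholly lower, where 4526 and 3698 of 17519 genes did so. The median was -0.09 over the members and -0.02 over all genes.

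**Figure D4:**
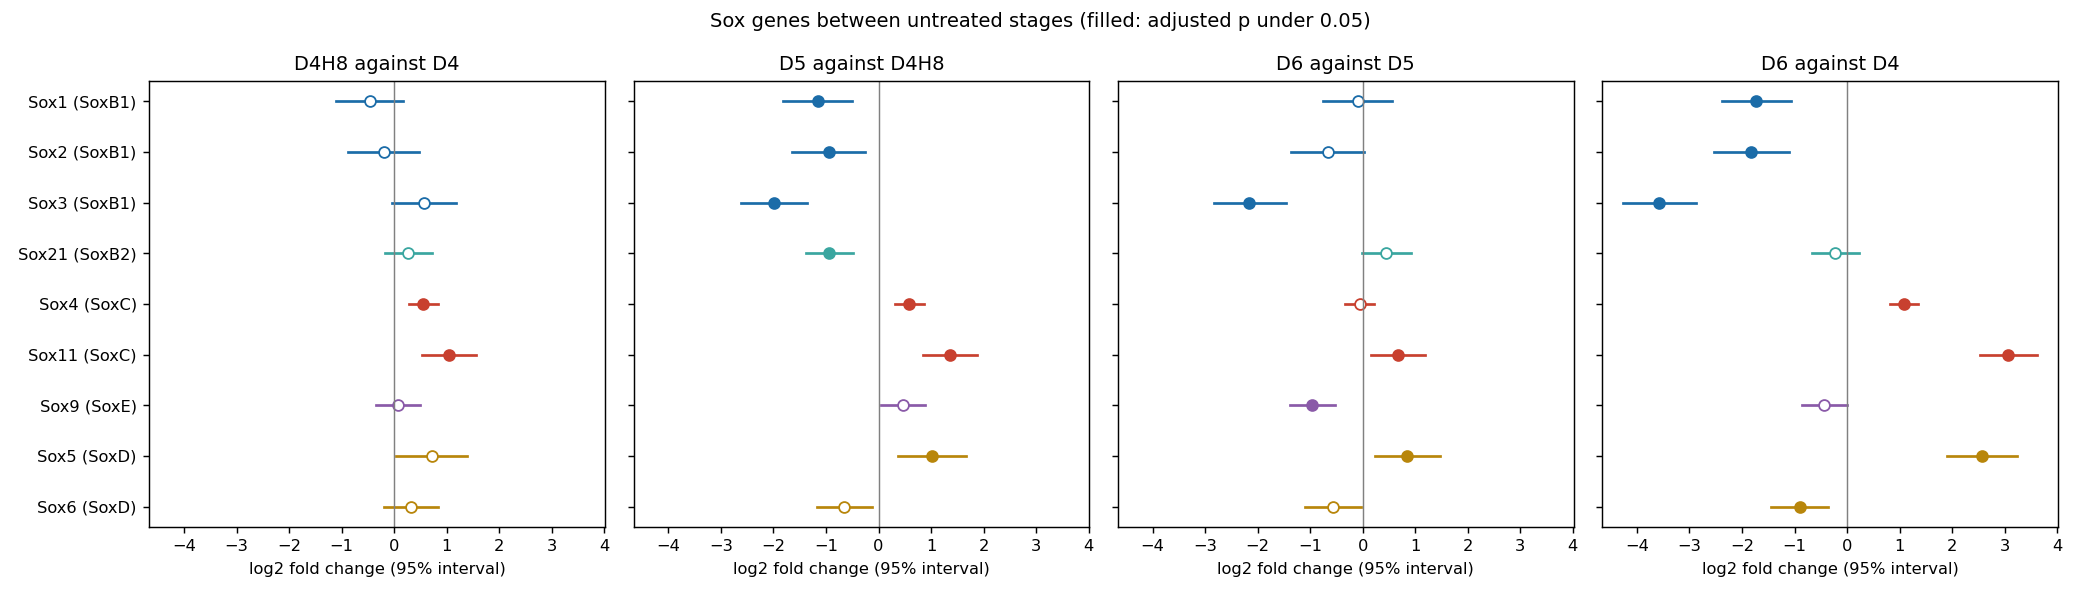
Log2 fold change (x axis) with its 95% interval for the 9 tested Sox genes (y axis) in each comparison of untreated stages; filled points passed an adjusted p of 0.05. The SoxC points are right of 0 in the first panels, and by D6 the SoxB1 points lie between -3.58 and -1.73 and those of *Sox11* and *Sox5* at 3.07 and 2.57.

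Neighbouring steps share libraries, so their values are not independent. From D4 to D6, 4 members fell and 3 rose, where 31.0% of all genes were called down and 32.9% up; with shares this high a call says little on its own, and the sizes differ more. *Sox11* rose by 3.07 on the log2 scale (SE 0.255, adjusted p 1.71e-07), *Sox5* by 2.57 (SE 0.312, adjusted p 6.71e-06) and *Sox4* by 1.09 (SE 0.128, adjusted p 4.97e-06). *Sox3* had a log2 fold change of -3.58 (SE 0.325, adjusted p 4.16e-07), *Sox2* of -1.82 (SE 0.33, adjusted p 0.000262), *Sox1* of -1.73 (SE 0.306, adjusted p 0.000212) and *Sox6* of -0.90 (SE 0.25, adjusted p 0.00603). The SoxD members *Sox5* and *Sox6* thus changed in opposite directions. *Sox21* (log2 fold change -0.22, SE 0.21, 95% interval -0.67 to 0.23, adjusted p 0.376) and *Sox9* (-0.43, SE 0.199, adjusted p 0.0731) were not called. Each of these 7 calls held in all 12 refits without a library, and the median was -0.43 over the members and -0.04 over all genes. With scaling to the upper quartile the all-gene median shifted by -0.15, and the direction of 0 members turned.

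*Sox14*, a SoxB2 gene known from V2 interneurons, had reads from D5 on. It held 0 counts in each D4 and D4H8 library, 2 counts in 1 D5 library and 0 in the others, and 17, 9 and 8 counts at D6 (0.50, 0.27 and 0.25 FPKM). A count of 0 in D4 allows up to 0.0535 CPM (counts scaled to the library total), taking 3 counts over the group. The pooled D6 level of 0.709 CPM was 13.3-fold that ceiling. The ceiling covers counting error at D4 only, and the counting error of the D6 level is left out. Among the V2 interneuron genes, *Gata2* was called up (log2 fold change 1.46, SE 0.484, adjusted p 0.0168) and *Foxn4* down from D4 to D6, and the summed level of the list was 4.10 to 6.16 FPKM at D4 and 7.18 to 9.89 at D6. *Lhx1* of the same list had a log2 fold change of 0.92 (SE 0.39, adjusted p 0.0513). The *Gata2* call was lost in some refits without a library (adjusted p up to 0.0699).

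Both SoxC members rose from D4 to D4H8 and from D4H8 to D5, so their promoters are shown. From D5 to D6 *Sox11* was called up and *Sox4* was not. *Sox12*, the SoxC gene that is no member, was not called in the earlier steps (log2 fold changes 0.14 and -0.05). It rose by 1.11 from D5 to D6. RefSeq gives 300-base windows (250 bases before to 50 after a start, GRCm38.p6) for 8 of the 10 members, and each was searched on both strands for CAGCTG, a palindromic E-box of the kind that proneural bHLH factors bind. The window of *Sox4* and that of *Sox11* each held 1 match, beginning 211 and 210 bases before the start, and 1 of the 6 *Sox6* windows held a match as well. Of all 32851 windows, 16.3% held the motif. The first 100 bases of both windows follow, 5′ to 3′, at chr13:28953850-28953949 and chr12:27342869-27342968 (both minus strand), with the motif in capitals.
Sox4: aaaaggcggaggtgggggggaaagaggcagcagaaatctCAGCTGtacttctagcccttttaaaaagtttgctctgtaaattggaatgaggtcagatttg
Sox11: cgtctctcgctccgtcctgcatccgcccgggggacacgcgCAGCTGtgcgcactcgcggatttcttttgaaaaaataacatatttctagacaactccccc

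The match is a description of letters, and binding to it was not tested. The motif was chosen with the course of these genes known.

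The genes most alike to a member over the 21 libraries, by Pearson correlation of log2 CPM among 11120 genes, differed between subfamilies. Closest to *Sox2* were *Ung* (r = 0.97), *Acp6* and *Chtf18* (both 0.958); *Ung* encodes uracil-DNA glycosylase and *Chtf18* a replication factor. *Sox11* was closest to *Slco5a1*, *Plcxd2* (both 0.987) and *Mapk8ip2* (0.985), and *Sox5* to *Irx5*, *Ywhah* (both 0.962) and *Tubb4a* (0.96), a tubulin. *Sox21* was closest to *Pgam1* (0.867), *Sf3a2* (0.865) and *Mycn* (0.837), and *Sox9* to *Zadh2* (0.815), *Slc9a3r1* (0.814) and *Pdia3* (0.813). All points share stages and replicate numbers. For deviations from group means the correlations were 0.902 to 0.967 for the genes named with *Sox2*, 0.857 to 0.915 with *Sox11*, 0.696 to 0.874 with *Sox21*, 0.396 to 0.646 with *Sox5* and 0.384 to 0.606 with *Sox9*. Between members, *Sox4* and *Sox11* had r = 0.923, *Sox2* and *Sox11* r = -0.829, and *Sox1* and *Sox21* r = 0.771.

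Other genes of the neural lineage give the setting for these courses, and their counts are to be read against the 32.9% of all genes called up and 31.0% called down from D4 to D6. In that comparison, 9 of 14 tested neural progenitor genes were called down and 2 up, with *Pax6* (log2 fold change -4.89, SE 0.34, adjusted p 2.84e-08) and the cyclin *Ccnd1* (-3.33, SE 0.194, adjusted p 5.19e-09) changing most, beside *Id1* (-3.29, SE 0.285, adjusted p 2.65e-07). All 14 postmitotic neuron genes were called up, with the neurofilament gene *Nefm* at 9.15 (SE 0.443, adjusted p 9.99e-10), *Mapt* at 8.75 and *Nefl* at 8.58. Among 10 known Sox cofactors and partners 5 were up and 1 (*Pax6*) down, *Nfia* most (4.97, SE 0.36, adjusted p 4.3e-08) and the POU factor *Pou3f1* at 2.37 (SE 0.27, adjusted p 3.81e-06). Of 10 tested glial lineage genes 4 were up and 3 down, *Nfia* again and *Olig1* (-4.06, SE 0.403, adjusted p 9.92e-07) most. Of the other Sox family genes 7 were tested: *Sox12*, the remaining SoxC gene, rose by 1.2 (SE 0.143, adjusted p 5.78e-06), and *Sox17*, an endoderm and endothelial factor, had -2.44 (SE 0.349, adjusted p 3.14e-05; named after its values were seen), while *Sox13* of SoxD had -0.15 (SE 0.131, adjusted p 0.347). *Sox12* held 21.3 to 27.2 FPKM at D4 and 45.3 to 61.5 FPKM at D6.

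Markers of other cells were counted against the same shares of all genes, 32.9% up and 31.0% down, and some moved with the members. The summed level of 9 pluripotency genes was 127, 301 and 242 FPKM in D4 replicates 1 to 3 and 16.1, 122 and 110 FPKM in those of D6. Replicate 1 was lowest in both groups, as it was for *Sox2*, and *Pou5f1* was at 1.53 to 14.0 FPKM at D6. At D5 replicate 1 was again lowest, with 56.5 FPKM against 149 and 126, and *Sox2* was lowest there too. Of these 9 genes 1 was called from D4 to D6, *Dppa5a* (log2 fold change -2.12, SE 0.604, adjusted p 0.00724), and *Zfp42* had -1.38 (SE 0.651, adjusted p 0.0776). Of 10 fibroblast genes 2 were called up, *Dcn* (3.70, SE 0.306, adjusted p 1.67e-07) and *Col3a1* (1.85, SE 0.532, adjusted p 0.00753), and their sum was 29.4 to 67.2 FPKM at D4 and 29.0 to 69.5 FPKM at D6. Of 7 neural crest genes, which *Sox9* also marks, 3 were up and 2 down, *Ngfr* among those up (6.67, SE 0.29), with sums of 25.4 to 30.0 FPKM at D4 and 199 to 257 FPKM at D6. Of 4 tested cartilage genes 2 were down, with *Col2a1* at -1.78 (SE 0.255, adjusted p 3.17e-05) and *Col11a1* at -0.46 (SE 0.193, adjusted p 0.0513). Of 5 tested endoderm and floor plate genes 2 were up and 1 down, *Shh* (6.33, SE 0.379) and *Gata6* (-1.34, SE 0.295) most. Their part in the Sox values was not tested.

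At D4H8 *Sox3* fell under GSKJ4 in the main edgeR fit, and other SoxB members had lower values that did not pass in that fit. *Sox3* held 66.0, 39.5 and 51.7 FPKM in untreated replicates 1 to 3 and 19.3, 3.08 and 10.8 FPKM in the treated ones. The groups did not overlap, and the log2 fold change was -2.32 (SE 0.505, 95% interval -3.46 to -1.19, edgeR adjusted p 0.0397). *Sox1* held 8.03, 6.40 and 10.9 FPKM untreated and 2.44, 0.76 and 5.02 FPKM treated, without overlap (log2 fold change -1.71, SE 0.507, interval -2.84 to -0.57, adjusted p 0.0825). *Sox21* held 7.17, 5.13 and 6.5 FPKM against 4.17, 1.12 and 3.47 FPKM, also without overlap (-1.18, SE 0.39, interval -2.05 to -0.30, adjusted p 0.105). Treated replicate 2 was lowest for each of these genes and for *Sox2*.

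*Sox2* itself overlapped between the groups, with 47.3, 54.9 and 75.6 FPKM untreated and 48.1, 30.3 and 62.3 FPKM treated (log2 fold change -0.39, SE 0.248, interval -0.95 to 0.17, adjusted p 0.359). The ratio of *Sox3* to *Sox2* in a library was 0.684 to 1.40 untreated and 0.102 to 0.40 treated, so the SoxB1 genes changed unequally. SoxC values were lower with overlap: *Sox11* at 34.7, 21.2 and 13.7 FPKM (-0.91, SE 0.328, adjusted p 0.127) and *Sox4* at 96.9, 65.0 and 82.7 FPKM (-0.45, SE 0.189, adjusted p 0.176). *Sox5* was lower in every treated library, 0.12 to 0.15 FPKM against 0.20 to 0.24 (-0.69, SE 0.331, adjusted p 0.227). *Sox6* had a positive value, with 2.35, 2.34 and 1.18 FPKM against 1.46, 1.04 and 0.86 (0.77, SE 0.338, adjusted p 0.193), and *Sox9* differed little with a wide interval (0.02, SE 0.275, interval -0.60 to 0.64, adjusted p 0.968). *Sox14* had 0 counts in both groups.

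In all, edgeR called 0 members up and 1 down of 9 tested. Of 16269 genes, 2.11% were called up and 1.85% down. At an unadjusted p under 0.05 were 6 members, where 4085 of all genes were. The treated libraries lay wholly under the untreated ones for 4 members and wholly above for 0, where 16.8% and 16.9% of all genes did so. The median log2 fold change was -0.69 over the members and 0.02 over all genes. The *Sox3* call held in 2 of 6 refits without a library; it was lost without untreated replicate 1 (adjusted p 0.175), 2 (0.104) or 3 (0.111) and without treated replicate 3 (0.0875), and without the latter *Sox1* was called instead (0.0451). DESeq2 called 4 members, *Sox1*, *Sox3*, *Sox21* and *Sox11*, where it called 1136 of 15456 genes up and 838 down. With the replicate number as a block, edgeR called the same 4 members. That fit called 1235 of 16269 genes up and 1039 down, and the libraries were not taken as paired here.

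**Figure D5:**
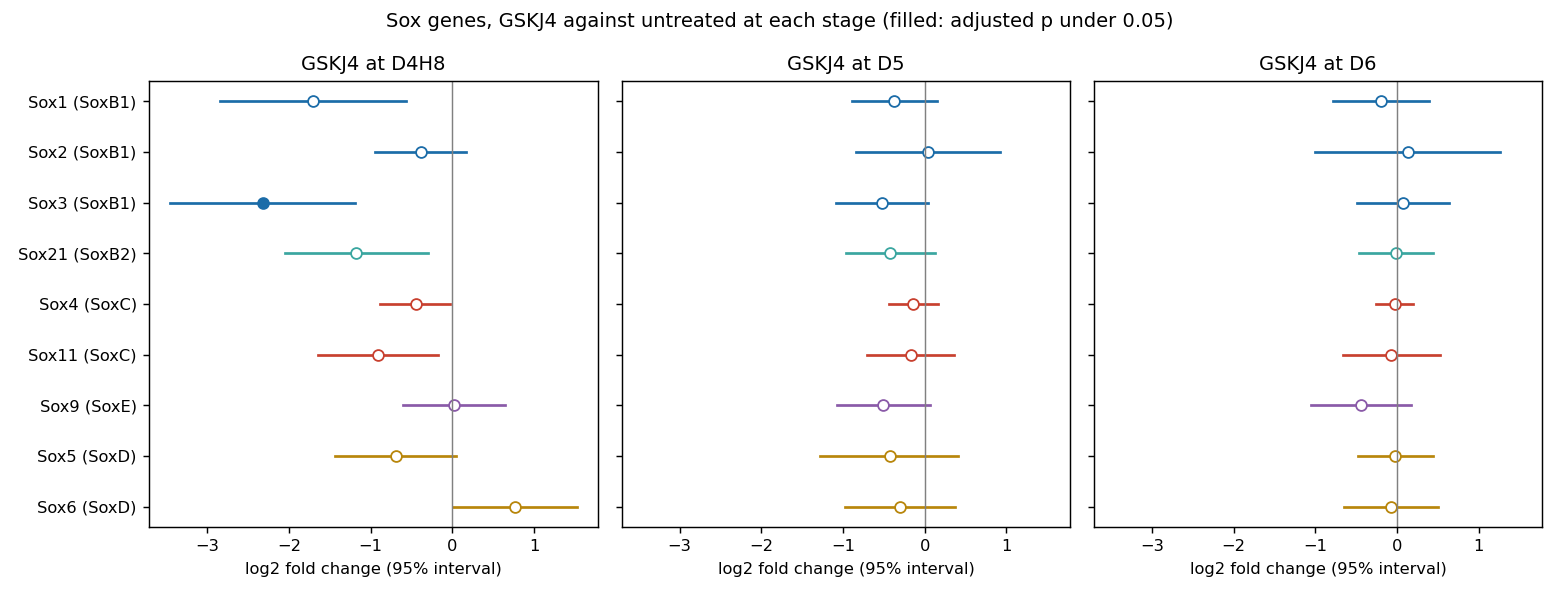
Log2 fold change (x axis) with its 95% interval for GSKJ4 against untreated libraries in the 9 tested Sox genes (y axis) at D4H8, D5 and D6; filled points passed an adjusted p of 0.05. *Sox3* at D4H8 is the filled point, at -2.32, and at D6 all points lie between -0.44 and 0.13.

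The progenitor and partner genes of the same libraries give the background of that stage. Of 14 tested neural progenitor genes 5 were called down under GSKJ4 at D4H8 and 0 up, *Ccnd1* with -1.87 (SE 0.181, adjusted p 0.00275) and *Prom1* with -1.20 (SE 0.236, adjusted p 0.0311); *Vim* had -1.34 (SE 0.371, adjusted p 0.0712). Of 10 cofactors and partners 3 were down and 0 up, all POU factors of the class that pairs with SoxB1 proteins on neural enhancers: *Pou3f3* (-3.03, SE 0.33, adjusted p 0.00442), *Pou3f2* (-2.84, SE 0.316, adjusted p 0.00487) and *Pou3f4* (-2.31, SE 0.533, adjusted p 0.0466). *Pou3f2* held 13.7 to 19.6 FPKM untreated and 1.56 to 3.80 FPKM treated. The progenitor factor *Olig2* held 79.4 to 124 FPKM untreated and 1.85 to 10.8 FPKM treated. Of 10 tested glial lineage genes 3 were down and 1 up, *Olig1* with -4.12 (SE 0.412, adjusted p 0.003) and *Slc1a3* with -1.39 (SE 0.312, adjusted p 0.0444). Of the 14 neuron genes edgeR called 0, with 5 at an unadjusted p under 0.05, and DESeq2 called *Elavl4* and *Tubb3*, 2 genes; *Rbfox3*, *Elavl3* and *Elavl4* had -1.37 (adjusted p 0.215), -1.37 (0.144) and -1.22 (0.0935). *Prom1*, *Pou3f4*, *Slc1a3* and *Erbb3* lost their calls in some refits without a library (adjusted p up to 0.159, 0.208, 0.148 and 0.234).

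Other cells' markers at D4H8 were as follows. The fibroblast sum was 36.9, 47.3 and 55.7 FPKM untreated and 74.5, 77.0 and 89.5 FPKM treated, and the groups did not overlap. EdgeR called 0 of 8 tested fibroblast genes, with 4 at an unadjusted p under 0.05, and DESeq2 called 2, *Col6a1* and *Fn1*. *Fn1*, the fibronectin gene, made up most of the sum, with 25.9 to 35.7 FPKM untreated and 49.8 to 57.4 FPKM treated. In edgeR *Col1a1* had a log2 fold change of 1.27 (SE 0.766, adjusted p 0.331) and *Col6a1* of 1.16 (SE 0.463, adjusted p 0.159). The pluripotency sum was 58.7, 250 and 163 FPKM untreated and 119, 208 and 263 FPKM treated, with overlap. Of these 9 genes 0 were called by edgeR or DESeq2, and 1, *Klf4*, had an unadjusted p under 0.05. *Esrrb* had 1.08 (SE 0.58, adjusted p 0.28) and *Zfp42* 0.94 (SE 0.548, adjusted p 0.316). *Erbb3* of the neural crest genes was called up (1.14, SE 0.267, adjusted p 0.0498). No gene was called by edgeR among 4 tested V2 interneuron genes (*Gata2* 0.77, *Lhx1* -0.71), 4 cartilage genes (*Col2a1* -0.61, *Col11a1* -0.53), 4 endoderm and floor plate genes (*Shh* 1.64, *Foxa2* -0.61) and 6 other Sox genes (*Sox13* -0.03, *Sox12* -0.01), all log2 fold changes. At an unadjusted p under 0.05 these lists held 0, 1, 2 and 1 genes, and DESeq2 called 0, 0, 2 and 1. The part of these markers in the *Sox3* value was not tested.

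At D5 and D6 no member was called under GSKJ4 by edgeR or by DESeq2, and 0 members had an unadjusted p under 0.05. All genes gave few calls as well: at D5 0.00613% of 16309 genes up and 0.0% down by edgeR, with 767 at an unadjusted p under 0.05 and 29 up and 40 down in DESeq2, and at D6 0.0% of 16301 genes in either direction by edgeR, with 222 genes at an unadjusted p under 0.05 and 1 gene called by DESeq2. Same-numbered libraries deviated together at D6, and with the replicate number as a block 48 genes were called up and 209 down there, 0 of them members. The medians over the members were -0.37 at D5 and -0.03 at D6, against -0.02 and 0.0 over all genes. At D5 *Sox3* held 17.3, 9.31 and 13.0 FPKM untreated and 8.29, 10.1 and 10.2 FPKM treated (log2 fold change -0.52, SE 0.25, interval -1.08 to 0.04, adjusted p 0.976). *Sox9* held 7.87, 6.09 and 4.88 against 5.48, 3.99 and 4.17 FPKM there (-0.51, SE 0.252, interval -1.07 to 0.06, adjusted p 0.976). *Sox2* overlapped widely, 18.2 to 37.6 against 14.2 to 50.3 FPKM (0.04, SE 0.394, interval -0.84 to 0.92).

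At D6 the intervals for the SoxC genes were narrow around 0 for *Sox4* (log2 fold change -0.03, interval -0.26 to 0.19) and wider for *Sox11* (-0.07, interval -0.66 to 0.52). *Sox3* held 2.43, 3.16 and 2.66 FPKM untreated and 2.27, 2.73 and 3.75 FPKM treated (0.07, interval -0.49 to 0.63). *Sox14* had 17, 9 and 8 counts untreated and 10, 2 and 3 treated, and the groups overlapped. The groups of 0 members were apart at D5 or D6, where 5.27% and 6.38% of all genes lay wholly above or below at D5, and 2.73% and 2.56% at D6. Leaving out D5_GSKJ4 replicate 2, the library with few detected genes, also gave 0 member calls at D5.

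Whether the response differed between stages was tested with an interaction term over 18 libraries. No member passed in edgeR. Of 18103 genes, 0.249% did for D5 against D4H8, 0.735% for D6 against D4H8 and 0.0% for D6 against D5. At an unadjusted p under 0.05 were 3, 3 and 0 members, where 1817, 2477 and 358 of all genes were. For D6 against D5, DESeq2 called 1 gene. The largest difference was that of *Sox3*, whose log2 response was higher at D6 than at D4H8 by 2.41 (SE 0.587, interval 1.18 to 3.64, adjusted p 0.0682) and at D5 by 1.79 (SE 0.563, adjusted p 0.265). For *Sox1* the difference between D6 and D4H8 was 1.53 (SE 0.558, adjusted p 0.229) and for *Sox21* 1.18 (SE 0.439, adjusted p 0.241). Without D4H8_GSKJ4 replicate 1 or 2, *Sox3* passed for D6 against D4H8 (adjusted p 0.0035 and 0.0469), without replicate 1 also for D5 against D4H8 (0.019), and without replicate 3 *Sox1* passed (0.0347). DESeq2 called 0, 1 and 0 members. Over all genes it called 158 up and 78 down of 17524, 291 and 289 of 15471, and 0 and 1 of 35329. The medians over the members were 0.41, 0.69 and 0.19, against -0.06, 0.0 and 0.05 over all genes.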

How the data were processed

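RNA was sequenced from 21 libraries, 7 groups of 3. The authors deposited raw counts per gene; submitters' notes name HISAT2, SAMtools, HTSeq and DESeq2 with build mm10. The deposited FPKM of the authors scales these counts to exonic length and counted reads, and FPKM recomputed here differed by at most 0.005. Groups and replicate numbers came from titles; 55140 identifiers had a symbol. Total counts of 14982115 to 34383842 limit precision for *Sox14* and *Sox5*; floors of 3 counts and intervals cover counting or replicate error only.

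Counts were tested in R 4.3.3 with edgeR 4.0.16 (quasi-likelihood, TMM, filterByExpr with a minimum count of 10, Benjamini-Hochberg over all tested genes, threshold 0.05): stages over 12 untreated libraries, each GSKJ4 contrast on its own 6, interactions over 18. Every p-value is two-sided. SE is the size of the fold change over the root of F, with 95% intervals. Log2 CPM used a prior count of 2. Scripts were tested on simulated data. Alternatives were DESeq2 1.42.0, scaling by RLE or the upper quartile, a replicate block, dropping the filter or asking for 10 counts in each library, all 21 libraries together, and each library left out. Python 3.11.15, pandas 2.3.3 and matplotlib 3.10.9 were used.

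The members and lists were chosen with earlier results of these data known. All members are named; per list the genes named had the largest absolute log2 fold change among tested genes with a mean of at least 100 counts, and *Foxn4*, *Fn1*, *Klf4*, *Tubb3*, *Pou5f1*, *Sox17* and the motor neuron markers were added after values were seen. Some list genes are not reported here. Same-numbered libraries' deviations from group means correlated at 0.13 to 0.35 (D4 and D4H8), 0.155 to 0.339 (D4H8 and D5), 0.182 to 0.345 (D5 and D6) and 0.431 to 0.757 (GSKJ4 at D6). All were over 0.1, so numbers were taken to pair there. The main tests still had no replicate block, so the pairing does not enter their SE, p-values or refits unless a block is named. With the block the edgeR adjusted p of *Sox11* from D4 to D4H8 was 0.0021, against 0.0233 without.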

Additional observations from a re-analysis of the deposited data

Results flagged for a closer look

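No Sox member passed edgeR's test of a difference in response between stages. Genes named beside the members did, by an interaction term. They had been named for the size of their GSKJ4 response at D4H8 within a list. That response is part of the difference tested, so their calls are not independent of how they were named. The log2 response of *Pou3f2* to GSKJ4 was higher at D5 than at D4H8 by 2.87 (SE 0.365, adjusted p 0.00178) and at D6 by 2.95 (SE 0.365, adjusted p 0.00101); it held 13.7 to 19.6 FPKM untreated and 1.56 to 3.80 FPKM treated at D4H8, and 14.03 to 15.03 and 13.07 to 16.97 FPKM at D6. For *Pou3f3* the differences were 2.24 (SE 0.409, adjusted p 0.0221) and 3.04 (SE 0.41, adjusted p 0.00131), the former lost in 7 refits without a library (adjusted p up to 0.0869, without D5 replicate 2). For *Olig1* the difference between D6 and D4H8 was 4.39 (SE 0.872, adjusted p 0.0228), lost in 5 refits (up to 0.0846, without D4H8 replicate 1).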

How the results depend on the processing

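The number of Sox members called was 2 from D4 to D4H8 and 1 with all 21 libraries in one fit. All genes gave 711 up and 56 down of 17519, and 413 and 9 of 18349 in the 1 fit. From D5 to D6 the number of members was 4, and 2 with upper-quartile scaling or all 21 libraries. All genes gave 3369 up and 2647 down of 17519, and 2912 and 3251 with upper-quartile scaling. With all 21 libraries they gave 2210 and 1983 of 18349. For GSKJ4 at D4H8 the number of members was 1. It was 4 without the filter, with DESeq2, with all 21 libraries and with the replicate number as a block. All genes gave 343 up and 301 down of 16269 in the main fit. They gave 1229 and 1058 of 31166 without the filter, and 1136 and 838 of 15456 with DESeq2. With all 21 libraries they gave 1058 and 990 of 18349, and with the block 1235 and 1039 of 16269. For the difference in response between D5 and D4H8 the number of members was 0. It was 2 without the filter, where 245 of 35343 genes were called up and 106 down. Between D6 and D4H8 it was 0. There it was 2 without the filter (all genes 414 up and 212 down of 35343) or with the replicate block (304 and 187 of 18103). It was 1 with at least 10 counts in every library (131 and 77 of 12816) or with DESeq2 (291 and 289 of 15471). The cause was not tested.

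Refits without 1 library gave 0 to 2 members from D4 to D4H8, 5 to 8 from D4H8 to D5, 2 to 4 from D5 to D6, 7 to 8 from D4 to D6, 0 to 1 for GSKJ4 at D4H8, and 0 to 0 at D5 and D6. They gave 0 to 1 for the difference between D5 and D4H8, 0 to 1 between D6 and D4H8, and 0 to 0 between D6 and D5. Over single members, 997 of these refit values kept direction and side of the threshold, 32 lost and 13 gained a call, and 38 changed sign; under the other settings the numbers were 568, 6, 27 and 2.

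The replicate block was a pairing supported by correlated deviations only in the comparisons named in the methods, where it changed the call of *Sox2* from D5 to D6 (-0.70, adjusted p 0.0176) and no other member's. Elsewhere same-numbered libraries correlated at 0.0231 to 0.0997 (D4 and D6), 0.0895 to 0.49 (GSKJ4 at D4H8) and 0.0596 to 0.255 (GSKJ4 at D5), so not every pair was over 0.1 and the libraries were not taken as paired. For GSKJ4 at D4H8, where 2 of the 3 pairs were at 0.298 and 0.49, the block called *Sox3* (adjusted p 2.19e-05), *Sox1* (0.000592), *Sox21* (0.00647) and *Sox11* (0.0141). The block turned the sign of *Sox9* at D4H8 (-0.03) and *Sox2* at D5 (-0.05) under GSKJ4. Sign also changed without 1 library for values near 0: from D4 to D4H8 for *Sox2* (-0.40 to 0.02) and *Sox9* (-0.03 to 0.20), from D5 to D6 for *Sox1* (-0.37 to 0.09), and under GSKJ4 for *Sox9* (-0.34 to 0.18), *Sox13* (-0.28 to 0.19) and *Sox12* (-0.29 to 0.29) at D4H8 and for *Sox2* (-0.39 to 0.39) and *Sox11* (-0.40 to 0.10) at D5. At D6 it did so for *Sox1* (-0.37 to 0.08), *Sox2* (-0.21 to 0.49), *Sox3* (-0.13 to 0.20), *Sox21* (-0.18 to 0.13), *Sox4* (-0.08 to 0.02), *Sox11* (-0.33 to 0.17), *Sox5* (-0.17 to 0.11) and *Sox6* (-0.24 to 0.10). Differences in response did so for *Sox2* between D5 and D4H8 (-0.02 to 0.75) and between D6 and D5 for *Sox1* (-0.01 to 0.47), *Sox2* (-0.22 to 0.53), *Sox11* (-0.17 to 0.37) and *Sox9* (-0.21 to 0.31). Depth limits *Sox14*, with at most 17 counts in a library.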
